A study of Mus musculus with 2 samples.

Results

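Chemokines are small secreted proteins that attract cells along a gradient, and they act through receptors that couple to inhibitory G proteins. They are sorted by the spacing of their first cysteines into CC, CXC, CX3C and XC ligands, and a few atypical receptors of the Ackr group bind them without G protein signalling and clear them from tissue. In muscle, CXCL12 and its receptor CXCR4 guide muscle precursors and satellite cells, CCL2 and its receptor CCR2 bring monocytes to injured fibres. In lymphoid tissue, CXCL13 with CXCR5 and CCL19 or CCL21 with CCR7 place B and T lymphocytes. The chemokine family was followed in RNA of gastrocnemius, the large calf muscle, from C57BL/6 mice of 8 weeks. Members were the protein-coding genes whose symbol in GENCODE M21 marks a CC, CXC, CX3C or XC ligand or receptor or an Ackr receptor, which gave 66 of the 34745 genes in the count table, 44 of them ligands and 22 receptors. The 66 genes carried 61 symbols, since copies on unplaced scaffolds repeat the names of Ccl19, Ccl21a, Ccl21b and Ccl27.

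There were 2 libraries, 1 with the genotype label Cry2scko and 1 from Cry2flox/flox (Cry2flox). Cry2 encodes cryptochrome 2, which represses transcription within the circadian clock, and in a floxed gene a segment is flanked by sites at which a recombinase can cut it out. The labels do not spell out scko, and they do not give the driver of a recombinase, the time of day or the number of animals behind a library. With 1 library per genotype there is no replicate, no test across animals and no p-value, and every ratio describes these libraries. The total was 16423884 reads in Cry2scko and 18909433 reads in Cry2flox, and the 4 myofibre markers Acta1, Ckm, Myh4 and Ttn summed to 90647 CPM (reads scaled to library size) in Cry2scko and 96741 CPM in Cry2flox. Cry2 itself had 133 reads in Cry2scko and 676 reads in Cry2flox, a log2 ratio of -2.16 (95% interval -2.44 to -1.89). Intervals are exact Clopper-Pearson intervals of the read share, and they and the limit of 3 reads used for a count of 0 cover counting error only. Amplified reads that carry no molecular identifier cannot be counted as separate molecules, so even that error may be understated.

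Several members known to guide leukocytes were higher in Cry2scko. The B cell chemokine Cxcl13 and its receptor Cxcr5 were both more than 2-fold higher, as were the receptors Ccr6, Ccr7 and Cxcr4, the neutrophil receptor Cxcr2, and the ligands Ccl2, Ccl5 and Ccl22. The ligands with the most reads, Cxcl12, Cxcl14 and Ccl11, differed by less than 1.5-fold, and no measured member was lower by the rule. These statements use a rule that asks for a mean CPM of 1 or more, a ratio of at least 2-fold and an interval that excludes a ratio of 1. Of the 66 members, 21 reached that mean, and 9 of the 21 (42.9%) were higher, 0 lower and 12 neither, against a background of 3.37% higher and 1.51% lower (4.88% in either direction) among 12832 genes. Of the 9, Ccl2, Ccl5, Ccr6 and Cxcr2 had less than 1 CPM in Cry2flox and reached the mean only through Cry2scko. With 1 CPM required in each library, 5 of 17 members (29.4%) were higher, and 0 lower, against 2.50% higher and 1.08% lower (3.58% in either direction) of 12443 genes.

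The remaining members were thinly read. Another 18 members had a total of 11 to 34 reads over both libraries without reaching the mean, 9 had 1 to 9 reads and 18 had none. Among the 39 members with 10 or more reads, 17 (43.6%) were at least 2-fold higher with an interval that excluded a ratio of 1 and 0 were lower in this way, against 4.37% and 2.25% (6.62% in either direction) of 14805 genes with that many reads. The family as a whole had 4275 reads in Cry2scko and 4549 reads in Cry2flox. Cxcl12 alone held 1527 of these reads in Cry2scko and 2075 in Cry2flox.

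**Figure D1:**
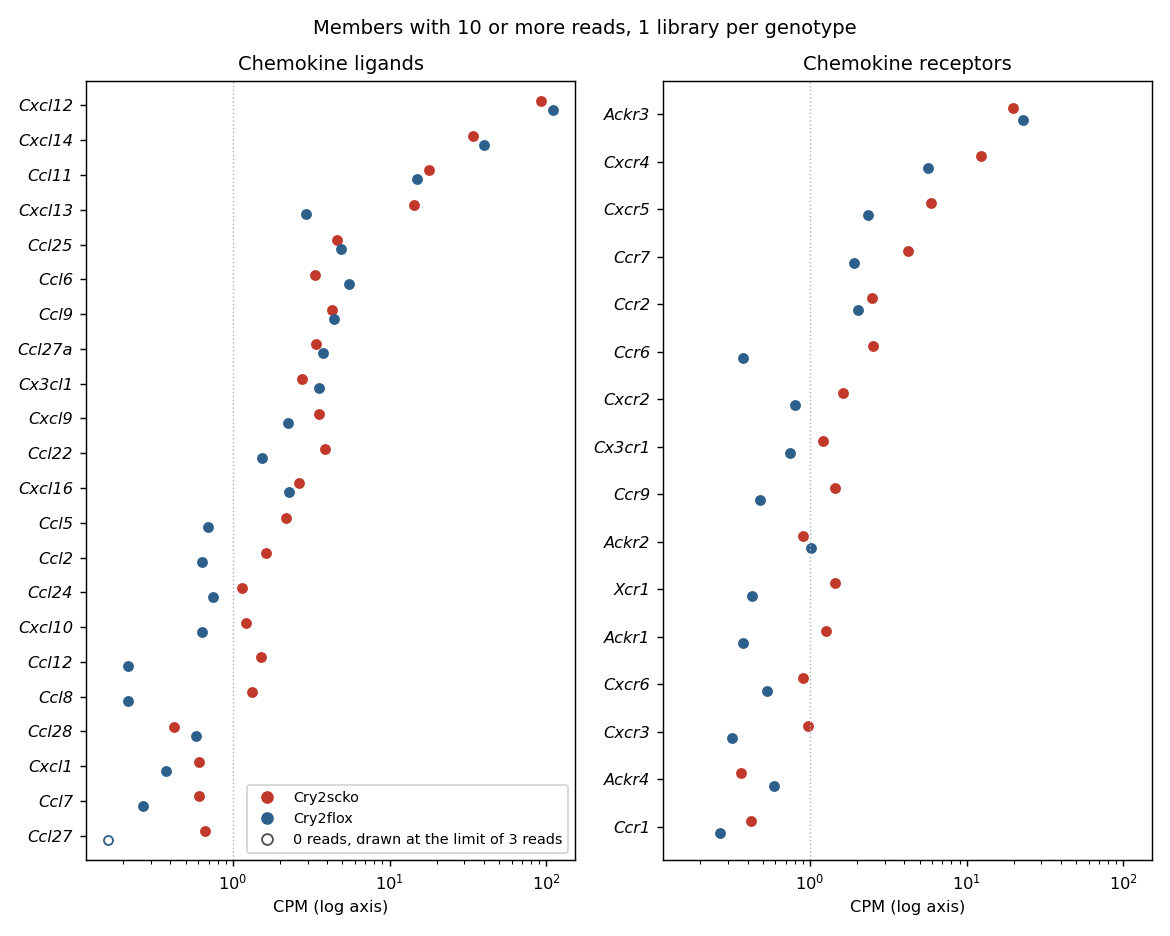
CPM of the chemokine ligands (left) and receptors (right) that are described here and have 10 or more reads over both libraries, on a log axis, with 1 point per library. Cry2scko lies to the right of Cry2flox for Cxcl13 (14.3 CPM in Cry2scko, 2.93 CPM in Cry2flox) and for most of the receptors, while Cxcl12 (92.3 CPM in Cry2scko, 111 CPM in Cry2flox) and Ackr3 (19.9 CPM in Cry2scko, 22.8 CPM in Cry2flox) lie slightly to the left. An open point is a count of 0 drawn at the limit of 3 reads, and the dotted line is 1 CPM.

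Per unit of length, the ligands led the family. The deposited FPKM values (a level scaled to gene length and to depth) put Cxcl14, a chemokine of epithelia and connective tissue, first, with 18.9 FPKM in Cry2scko and 22.0 FPKM in Cry2flox. Ccl11, which attracts eosinophils, came next with 16.5 FPKM in Cry2scko and 13.8 FPKM in Cry2flox. Cxcl13 had rank 3 in Cry2scko at 12.5 FPKM and rank 5 in Cry2flox at 2.53 FPKM. Cxcl12 followed with 7.18 FPKM in Cry2scko, where its rank was 4, and 8.47 FPKM in Cry2flox, where its rank was 3. Ackr3, the scavenger of CXCL12, was the highest receptor in both libraries, with 5.77 FPKM in Cry2scko and 6.54 FPKM in Cry2flox. Cxcr4 came next among receptors, with 4.59 FPKM in Cry2scko and 2.09 FPKM in Cry2flox. Ccr2 was the lowest of the 21 in both libraries, with 0.178 FPKM in Cry2scko and 0.143 FPKM in Cry2flox. Without replicates, neighbours in this order cannot be separated.

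Cxcl13 had the highest ratio among the 6 members whose mean was at least 5 CPM. Cxcl13 (ENSMUSG00000023078, GRCm38 chromosome 5, 95956951 to 95961068, plus strand), made by stromal cells of B cell follicles, had 237 reads or 14.3 CPM in Cry2scko and 55 reads or 2.93 CPM in Cry2flox. This was 4.86-fold higher, a log2 ratio of 2.28 (1.86 to 2.74). Cxcr5 (ENSMUSG00000047880, chromosome 9, 44511787 to 44561877, minus strand), the CXCL13 receptor of B cells and follicular helper T cells, had 98 reads or 5.93 CPM in Cry2scko and 44 reads or 2.34 CPM in Cry2flox. It was 2.51-fold higher, a log2 ratio of 1.33 (0.81 to 1.89). Exons of Cxcr5 overlap those of Bcl9l on the other strand, and strand use in the counting is not given in the sources used here. Ligand and receptor were thus both past the rule, the single case among the 4 of 48 listed pairs in which both ends reached a mean of 1 CPM.

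Ccr6 had the highest ratio of all measured members. Ccr6 (ENSMUSG00000040899, chromosome 17, 8236043 to 8257141, plus strand), the receptor for CCL20 on B cells and helper T cells, had 42 reads in Cry2scko and 7 reads in Cry2flox. Its log2 ratio was 2.69 with a wide interval of 1.6004 to 4.17. Its ligand Ccl20 had 6 reads in Cry2scko and 0 in Cry2flox. Measured against 3 reads, that is at least 2.27-fold higher in Cry2scko.

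Among measured members, Cxcl13 had the largest ratio of the ligands and Ccr6 that of the receptors. The start regions of these genes are shown because the clock repressor named in the genotypes acts through short DNA elements near gene starts. Sequences are RefSeq promoter windows on GRCm38.p6, from 250 bases before to 50 after a start, written in the direction of the gene, and capitals mark a match to a motif that was searched on both strands.
Cxcl13, chr5:95956689-95956988, plus strand: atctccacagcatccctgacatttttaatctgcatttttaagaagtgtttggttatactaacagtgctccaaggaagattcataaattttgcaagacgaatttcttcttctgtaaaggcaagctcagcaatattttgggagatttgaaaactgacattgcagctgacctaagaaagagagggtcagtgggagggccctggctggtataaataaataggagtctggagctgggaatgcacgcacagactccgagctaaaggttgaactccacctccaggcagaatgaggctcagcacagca
Ccr6 upstream start, chr17:8235793-8236092, plus strand: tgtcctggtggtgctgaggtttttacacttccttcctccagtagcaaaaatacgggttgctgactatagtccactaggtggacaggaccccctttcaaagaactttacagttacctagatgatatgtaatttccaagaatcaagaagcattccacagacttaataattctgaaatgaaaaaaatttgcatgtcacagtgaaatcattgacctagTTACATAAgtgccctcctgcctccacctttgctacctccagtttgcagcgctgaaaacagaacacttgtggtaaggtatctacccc
Ccr6 downstream start, chr17:8242276-8242575, plus strand: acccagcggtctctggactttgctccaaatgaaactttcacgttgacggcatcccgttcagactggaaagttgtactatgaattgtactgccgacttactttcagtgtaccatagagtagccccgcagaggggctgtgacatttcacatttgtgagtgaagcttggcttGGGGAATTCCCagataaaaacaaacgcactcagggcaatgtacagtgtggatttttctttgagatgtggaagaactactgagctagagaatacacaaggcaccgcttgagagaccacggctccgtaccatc

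The Cxcl13 window held none of the 4 motifs searched. The upstream Ccr6 window held, on the other strand, a D-box (TTATGTAA or TTATGCAA), the element bound by Dbp and its relatives, whose match begins 36 bases before the start (position -36). The downstream Ccr6 window held the NF-kB consensus as a pair of overlapping matches. The E-box CACGTG, to which the activator pair repressed by cryptochromes binds, was in 0 of the 6 windows of the 5 higher members that had one (Ccl22, Ccr6, Cxcl13, Cxcr2 and Cxcr4). Of the 61 symbols, 45 had a window in the table, 52 windows in all. An E-box was in 2 of these (3.85%), those of Cxcl3 and Xcr1, and in 7.15% of all 32851 windows. The D-box was in 1 of 52 (1.92%) and in 1.66% of all windows. The NF-kB consensus was in 10 of 52 (19.2%), against 4.51% of all windows, in Ackr2, Ccl9, Ccl20, Ccl27a, Ccr3, Ccr6, Cxcl1, Cxcl2, Cxcl3 and Cxcl10. The core of the interferon-stimulated response element (ISRE) was in 3 of 52 (5.77%), those of Ccl19, Cxcl10 and Cxcl14, and in 3.44% of all windows. A match here describes letters in the window, not binding.

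Of the receptors, Cxcr4, Ccr7 and Cxcr2 were higher besides Ccr6 and Cxcr5. Cxcr4 (ENSMUSG00000045382, chromosome 1, 128588199 to 128592293, minus strand), which lymphocytes, endothelium and satellite cells carry, had 204 reads or 12.3 CPM in Cry2scko and 107 reads or 5.70 CPM in Cry2flox, a log2 ratio of 1.11 (0.77 to 1.47). Ccr7 (ENSMUSG00000037944, chromosome 11, 99144196 to 99155077, minus strand), which brings T cells and dendritic cells into lymph nodes, had 70 reads in Cry2scko and 36 reads in Cry2flox, a log2 ratio of 1.13 (0.54 to 1.76). Cxcr2 (ENSMUSG00000026180), the receptor by which neutrophils follow CXCL1 and CXCL2, passed narrowly, with 27 reads in Cry2scko and 15 in Cry2flox at 1.01 (0.07 to 2.05). It no longer passed when 5 reads instead of 0.5 were added to each count, at a log2 ratio of 0.86. The monocyte receptor Ccr2 (ENSMUSG00000049103) had 41 reads in Cry2scko and 38 in Cry2flox at 0.29 (-0.38 to 0.97), so a difference was not detectable at this depth. Ackr3 (ENSMUSG00000044337) had 329 reads in Cry2scko and 429 in Cry2flox at -0.20 (-0.41 to 0.01). In all, 5 of the 7 measured receptors were higher, 0 lower and 2 neither, with a median log2 ratio of 1.11. Over all 12832 measured genes, 3.37% were higher and 1.51% lower, with a median of -0.0027. Ccr6 and Cxcr2 had less than 1 CPM in Cry2flox. With 1 CPM required in each library, 3 of 5 receptors were higher, against 2.50% of 12443 genes.

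Of 14 ligands that were measured, 4 were higher, 0 lower and 10 neither, and 7 had a ratio above 1 and 7 below. Their median log2 ratio was 0.09. By the same rule, 3.37% of all 12832 measured genes were higher and 1.51% lower. Ccl2 and Ccl5 had less than 1 CPM in Cry2flox. With 1 CPM required in each library, 2 of 12 ligands were higher, against 2.50% of 12443 genes. Ccl22 (ENSMUSG00000031779, chromosome 8, 94745590 to 94751699, plus strand), a dendritic cell and macrophage product that attracts CCR4-bearing T cells, had 64 reads or 3.87 CPM in Cry2scko and 29 reads or 1.54 CPM in Cry2flox, a log2 ratio of 1.31 (0.67 to 2.01). Ccl5 (ENSMUSG00000035042, chromosome 11, 83525778 to 83530518, minus strand), made by activated T and NK cells, had 36 reads in Cry2scko and 13 in Cry2flox, at 1.62 (0.70 to 2.69). Ccl2 (ENSMUSG00000035385, chromosome 11, 82035571 to 82037453, plus strand), the main monocyte attractant, had 27 reads in Cry2scko and 12 in Cry2flox, at 1.32 (0.32 to 2.47). The receptors of Cxcl13 and of these 3 ligands are known chiefly from leukocytes.

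The ligands Cxcl12, Cxcl14 and Ccl11 had the most reads of the ligands and did not pass the rule. Cxcl12 (ENSMUSG00000061353, chromosome 6, 117168535 to 117181367, plus strand), the retention signal for CXCR4-bearing cells, had 1527 reads in Cry2scko and 2075 in Cry2flox, a log2 ratio of -0.26 (-0.36 to -0.16). Cxcl14 (ENSMUSG00000021508) had 566 reads in Cry2scko and 757 in Cry2flox, at -0.24 (-0.40 to -0.08). Their intervals exclude a ratio of 1 on counting error, but both differences are under 1.5-fold, and variation between animals was not measured. Ccl11 (ENSMUSG00000020676) had 294 reads in Cry2scko and 283 in Cry2flox, at 0.24 (-0.0023 to 0.48).

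Ccl6 (ENSMUSG00000018927), a macrophage and neutrophil product of rodents, had 55 reads in Cry2scko and 104 in Cry2flox at -0.73 (-1.23 to -0.25), the lowest ratio of the 21 and under 2-fold. Ccl9 (ENSMUSG00000019122), its neighbour and fellow ligand of CCR1, had 71 reads in Cry2scko and 83 in Cry2flox at -0.04. Cx3cl1, the membrane-bound fractalkine of endothelium, had 46 reads in Cry2scko and 67 in Cry2flox at -0.35 (-0.93 to 0.20). Ccl25, a ligand of CCR9 known from thymus and gut, had 76 reads in Cry2scko and 92 in Cry2flox at -0.09, and its exons overlap those of Elavl1 on the other strand. Ccl27a, a skin chemokine, had 56 reads in Cry2scko and 71 in Cry2flox at -0.16, but it has near-identical copies and overlaps Il11ra1 on the other strand, so its count is uncertain. Cxcl9, a ligand induced by interferon, had 59 reads in Cry2scko and 42 in Cry2flox at 0.67 (0.08 to 1.28), under 2-fold. Cxcl16, the ligand of CXCR6, had 44 reads in Cry2scko and 43 in Cry2flox at 0.22 (-0.42 to 0.86), and it overlaps Zmynd15 on the other strand.

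**Figure D2:**
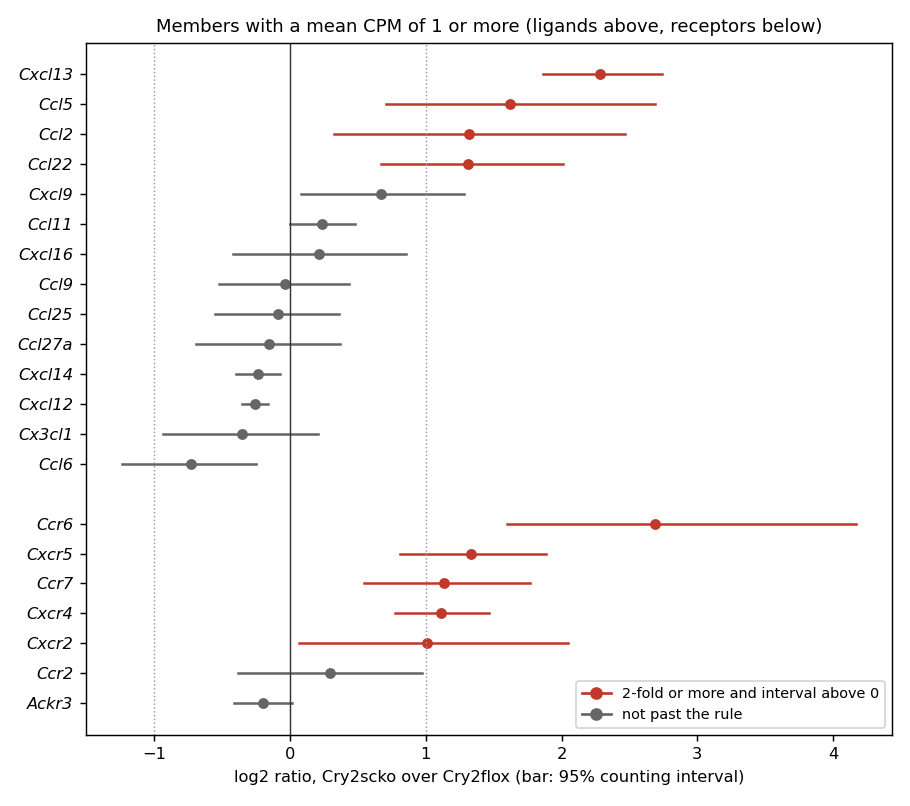
Log2 ratio of Cry2scko over Cry2flox for the 21 measured members, with 95% counting intervals as bars and dotted lines at 2-fold. Red marks the 9 members past the rule, from Ccr6 at 2.69 to Cxcr2 at 1.01, and the lowest point is Ccl6 at -0.73.

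Of the 18 members under a mean of 1 CPM with 10 or more reads, 15 had a ratio above 1, 8 were at least 2-fold higher with an interval excluding 1, and 0 were lower in this way. Of all 1973 genes with 10 or more reads and a mean under 1 CPM, 10.9% were higher and 7.05% lower in this way (17.9% in either direction). They cannot be called, and with counts this small the intervals are wide. Relatives of Ccl2 that lie beside it on chromosome 11 were among the 8. Ccl12 had 25 reads in Cry2scko and 4 in Cry2flox at 2.69 (1.29 to 4.81), and Ccl8 had 22 reads in Cry2scko and 4 in Cry2flox at 2.51 (1.08 to 4.64). Ccl7, a ligand of CCR2 in the same group, had 10 reads in Cry2scko and 5 in Cry2flox at 1.12 (-0.50 to 3.08). The 4 genes Ccl2, Ccl7, Ccl12 and Ccl8, picked after their values were seen, summed to 84 reads in Cry2scko and 25 in Cry2flox. Ccl11 lies between them on the chromosome, and its log2 ratio was 0.24.

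Receptors made up most of the others. Ccr9, the gut-homing receptor, had 24 reads in Cry2scko and 9 in Cry2flox at 1.55 (0.44 to 2.89), and it shares exon bases with Gm17200 on the same strand. Xcr1, the receptor of cross-presenting dendritic cells, had 24 reads in Cry2scko and 8 in Cry2flox at 1.71 (0.57 to 3.13). Cxcr3, the receptor for CXCL9 and CXCL10 on effector T cells, had 16 reads in Cry2scko and 6 in Cry2flox at 1.53 (0.17 to 3.24). Ackr1, an atypical receptor of venular endothelium and red cell precursors, had 21 reads in Cry2scko and 7 in Cry2flox at 1.70 (0.48 to 3.25), and its exons overlap those of Cadm3. A scaffold gene named Ccl27 had 11 reads in Cry2scko and 0 in Cry2flox, at least 4.16-fold higher against 3 reads, and its relation to the reads of Ccl27a is not resolved.

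For the next members, all with 10 or more reads, the intervals include a ratio of 1 and a difference was not detectable at this depth. Of these, Cx3cr1, Cxcl10 and Ackr4 share exon bases with a gene on the other strand. Cx3cr1, the fractalkine receptor of monocytes and macrophages, had 20 reads in Cry2scko and 14 in Cry2flox, and Cxcr6 had 15 reads in Cry2scko and 10 in Cry2flox. Ccr1 had 7 reads in Cry2scko and 5 in Cry2flox. Of the scavenger receptors, Ackr2 had 15 reads in Cry2scko and 19 in Cry2flox and Ackr4 had 6 reads in Cry2scko and 11 in Cry2flox. Among ligands, Cxcl10 had 20 reads in Cry2scko and 12 in Cry2flox, Ccl24 had 19 reads in Cry2scko and 14 in Cry2flox, Cxcl1 had 10 reads in Cry2scko and 7 in Cry2flox, and Ccl28 had 7 reads in Cry2scko and 11 in Cry2flox. Of the 9 members with 1 to 9 reads, Ccl4, Ccl20, Ccr4, Ccr8, Ccr10, Cxcl2, Cxcl5 and Xcl1 were read in Cry2scko alone and Ccr3 in Cry2flox alone, 21 reads in Cry2scko and 1 in Cry2flox in all. Of these 9, Ccl20 and Ccl4 had intervals that exclude a ratio of 1, and Xcl1 shares exon bases with Gm20743 on the other strand.

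A count of 0 in both libraries has a different footing in different genes. Of the 18 such members, 6 lie on unplaced scaffolds and 4 (Ccl19, Ccl21a, Ccl21b and Ccl27b) lie on chromosome 4 and have a near-identical copy, taken as 95% identity over at least 50% of a transcript. How the authors counted reads that match several copies is not given in the sources used here, so the absence of Ccl19 and Ccl21 reads cannot be read as absence of their RNA, and the ligand side of CCR7 could not be compared. The other 8, Ccl1, Ccl3, Ccl17, Ccl26, Cxcl3, Cxcl15, Cxcl17 and Cxcr1, have no such copy, and 0 reads limit each to 0.181 CPM in Cry2scko and 0.160 CPM in Cry2flox.

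Of the 48 listed pairs, 22 had 10 or more reads at both ends, and the pairs share members, 14 ligands and 14 receptors in all. Both ratios were above 1 in 13 of the 22, both below 1 in 2, and on different sides in 7. Taken singly, 13 of the 21 measured members and 15 of the 18 under that mean also had a ratio above 1. Of all 12832 measured genes, 6350 had a ratio above 1. Whether partners moved together was not tested. CXCL12 and CXCR4 lay on different sides, with Cxcl12 at -0.26 and Cxcr4 at 1.11, while Cxcl12 and its scavenger Ackr3 (-0.20) lay together. Among the ligands of CCR2, Ccl2 was at 1.32 (0.32 to 2.47) and Ccl12 at 2.69 (1.29 to 4.81), and the receptor was at 0.29 (-0.38 to 0.97). The difference between ligand and receptor ratios was not tested. For CXCR3, the ligands Cxcl9 (0.67) and Cxcl10 (0.90) and the receptor (1.53) were all above 0, and the intervals of Cxcl10 and the receptor are wide. Cx3cl1 (-0.35) and Cx3cr1 (0.68) lay on different sides, both with intervals that include 0.

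**Figure D3:**
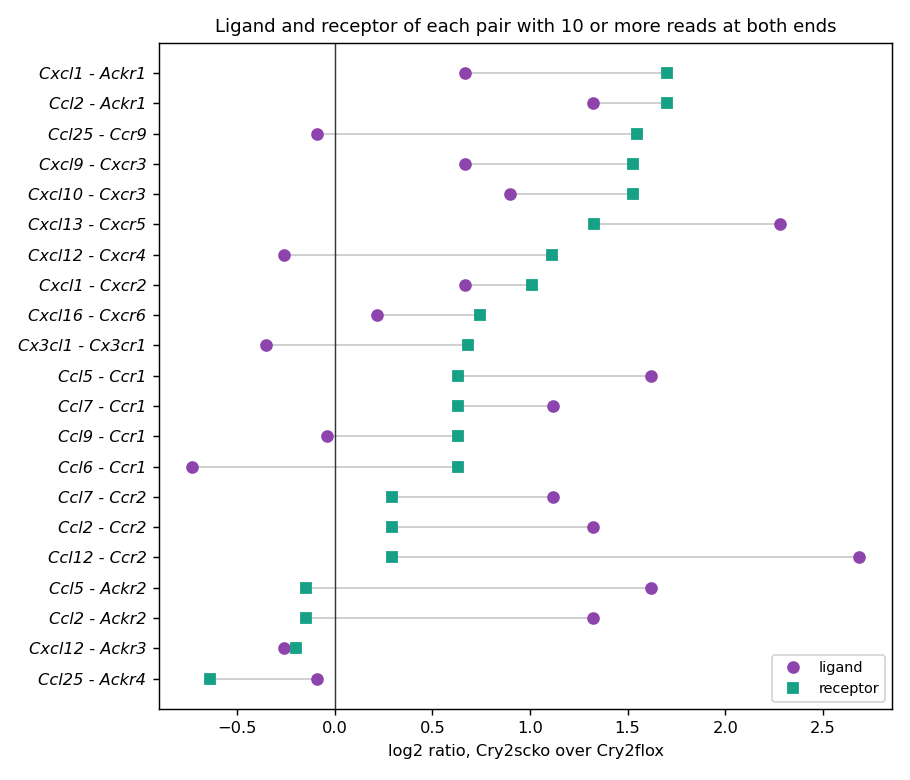
Log2 ratio of Cry2scko over Cry2flox for the ligand (circle) and receptor (square) of the 21 listed pairs with 10 or more reads at both ends and no count of 0. Cxcl13 (2.28) and Cxcr5 (1.33) are both on the right, whereas Cxcl12 (-0.26) and Cxcr4 (1.11) lie on either side of 0. Intervals are left out here.

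Members within 500 kb of each other formed groups on the chromosomes, and those made of ligands are given here. The Ccl5, Ccl9, Ccl6, Ccl3 and Ccl4 group on chromosome 11 had 167 reads in Cry2scko and 200 in Cry2flox at -0.08 (-0.38 to 0.23), in which Ccl5 was higher and Ccl6 was at -0.73. The Ccl2 to Ccl1 group on the same chromosome had 378 reads in Cry2scko and 308 in Cry2flox at 0.48 (0.26 to 0.70), of which Ccl11 held most. On chromosome 5, Cxcl9 and Cxcl10 had 79 reads in Cry2scko and 54 in Cry2flox at 0.73 (0.21 to 1.26). Also on chromosome 5, Cxcl5, Cxcl3, Cxcl15, Cxcl1 and Cxcl2 had 13 reads in Cry2scko and 7 in Cry2flox, and Ccl26 and Ccl24 had 19 reads in Cry2scko and 14 in Cry2flox, all of them from Ccl24. The Ccl22, Cx3cl1 and Ccl17 group on chromosome 8 had 110 reads in Cry2scko and 96 in Cry2flox at 0.38 (-0.029 to 0.79). All reads of the chromosome 4 group came from Ccl27a, described above.

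Genes that carry the signal of these receptors included several higher ones. Of 32 listed genes of chemokine signal transduction and cell migration, 31 were measured, 7 were higher, 1 lower and 23 neither, with a median log2 ratio of 0.45. Over all 12832 measured genes, 3.37% were higher and 1.51% lower. Most of the higher genes of this list are known chiefly from leukocytes. Coro1a, an actin regulator, had 399 reads in Cry2scko and 168 in Cry2flox at 1.43 (1.17 to 1.70) and overlaps Bola2 on the other strand, and the Rac activator Dock2 had 239 reads in Cry2scko and 122 in Cry2flox at 1.15 (0.83 to 1.48). Rac2 was at 1.18, the kinase Ptk2b at 1.29, Vav1 at 1.16, the integrin chain Itgb2 at 1.09 and the PI3-kinase subunit Pik3r5 at 1.25. The 2 most abundant of the other genes were Rac1, with 2750 reads in Cry2scko and 3012 in Cry2flox at 0.05, and the kinase Jak2, with 1192 reads in Cry2scko and 1577 in Cry2flox at -0.22. Gnai1, an inhibitory G protein subunit, was lower at -1.19 on 34 reads in Cry2scko and 89 in Cry2flox. Among 16 lymphotoxin and lymphoid organ factors, 10 were measured, 3 higher, 0 lower and 7 neither. The higher ones were Ltb, which encodes lymphotoxin beta, with 174 reads in Cry2scko and 94 in Cry2flox at 1.07, the B cell receptor for BAFF Tnfrsf13c with 106 reads in Cry2scko and 32 in Cry2flox at 1.90, and the interleukin 7 receptor Il7r with 140 reads in Cry2scko and 57 in Cry2flox at 1.47. Ltbr, the lymphotoxin receptor of stromal cells, was at -0.22 (-0.43 to -0.01).

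Markers of several leukocytes were higher as well, to be read against 3.37% higher and 1.51% lower over all 12832 measured genes. Of 8 B cell markers all were measured and 7 were higher, 0 lower and 1 neither, and they summed to 134.8 CPM in Cry2scko and 51.6 CPM in Cry2flox. Among the higher ones, Cd79b was at 2.04, Ms4a1 at 1.56 and Pax5 at 1.53. Of 4 measured plasma cell markers 0 were past the rule, with sums of 55.6 CPM in Cry2scko and 56.1 CPM in Cry2flox. Of 2 measured mast cell and eosinophil markers 0 were past the rule, with sums of 8.34 CPM in Cry2scko and 8.47 CPM in Cry2flox. Of 8 T cell markers 3 were higher (Cd3e, Cd3g and Cd8a), 0 lower and 5 neither, with sums of 35.2 CPM in Cry2scko and 22.1 CPM in Cry2flox. Of 5 measured dendritic cell markers 4 were higher, Ccr7, Flt3, Itgax and Clec9a, and the last 3 had less than 1 CPM in Cry2flox. The other, Zbtb46, was the most abundant, with 177 reads in Cry2scko and 209 in Cry2flox at -0.06 (-0.35 to 0.24). The dendritic cell list summed to 22.9 CPM in Cry2scko and 16.6 CPM in Cry2flox. All 3 measured neutrophil markers were higher, S100a9, Csf3r and Cxcr2 itself, each with less than 1 CPM in Cry2flox, on sums of 7.26 CPM in Cry2scko and 2.56 CPM in Cry2flox, and the defining marker Ly6g had 0 reads in both libraries. Macrophage markers had 0 of 8 past the rule, with sums of 120.6 CPM in Cry2scko and 106.6 CPM in Cry2flox. The most abundant, Lyz2, had 68.4 CPM in Cry2scko and 46.7 CPM in Cry2flox at 0.55 (0.42 to 0.68). Mrc1 at -0.39 (-0.64 to -0.15), C1qa at -0.45 (-0.78 to -0.13) and Cd163 at -0.64 (-1.04 to -0.27) had intervals below a ratio of 1. The intervals of Adgre1, Csf1r, Cd68 and C1qb include that ratio. NK cell markers summed to 2.30 CPM in Cry2scko and 1.12 CPM in Cry2flox with none measured. In a list of lymph node stroma and high endothelial venules, Cr2 (1.73), Fcer2a (1.58) and Cxcl13 were higher and 2 measured genes were neither, of which Glycam1, a mucin of high endothelial venules and mammary gland, had 374 reads in Cry2scko and 419 in Cry2flox. Cr2 and Fcer2a are also carried by B cells. The part of these cells in the chemokine values was not tested, and in bulk RNA a different number of cells of a type and a different amount of RNA per cell cannot be told apart.

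Fibroblast markers had 1 of 6 lower, Col1a1 at -1.13, 0 higher and 5 neither, and they summed to 835.6 CPM in Cry2scko and 1217 CPM in Cry2flox. Blood endothelial markers had 0 of 5 past the rule and lymphatic endothelial markers 0 of 4. The 4 satellite cell markers were all neither and summed to 27.7 CPM in Cry2scko and 37.4 CPM in Cry2flox. Chodl at -0.89 (-1.17 to -0.62) and Pax7 at -0.60 (-1.18 to -0.05) had intervals below a ratio of 1. Cdh15 (-0.03) and Myf5 (0.36) had intervals that include it. Cxcr4 is a gene that satellite cells share with leukocytes, and the cells behind its higher count were not tested.

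**Figure D4:**
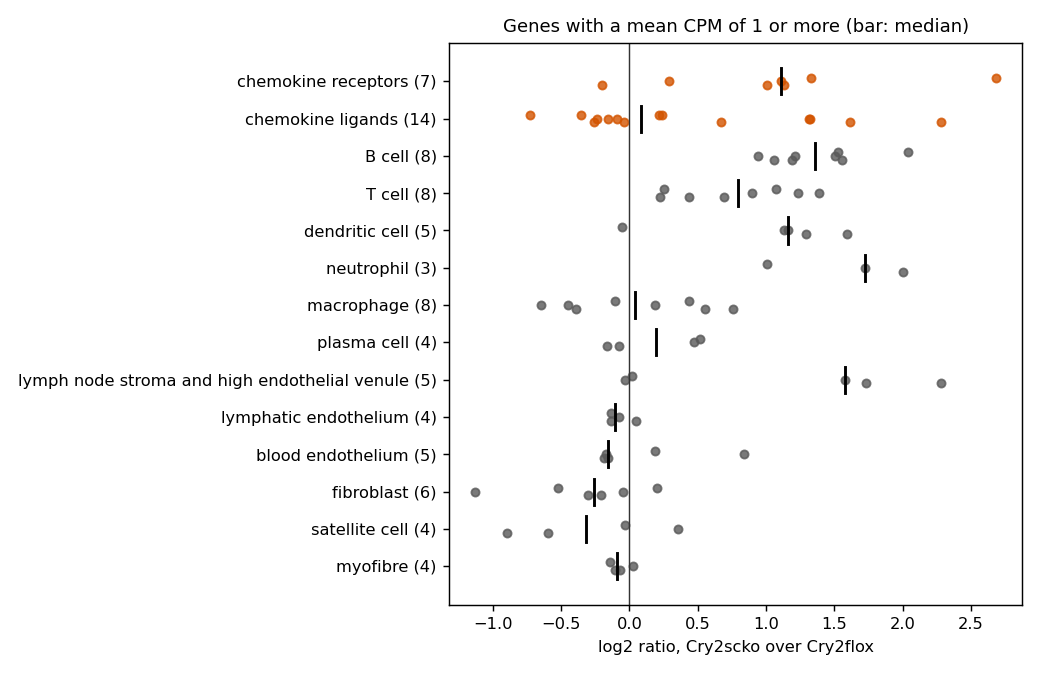
Log2 ratio of Cry2scko over Cry2flox for measured genes, by list, with the number of genes in brackets and a bar at the median. The medians are 1.11 for chemokine receptors, 0.09 for chemokine ligands, 1.36 for B cell genes, 1.16 for dendritic cell genes and 0.04 for macrophage genes. Ccr7 stands in both the receptor and the dendritic cell rows, Cxcr2 in both the receptor and the neutrophil rows, and Cxcl13 in both the ligand and the lymph node rows.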

How the data were processed

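RNA of gastrocnemius was sequenced in 2 libraries, 1 per genotype. HISAT2 2.0.4, StringTie 1.3.0 and CASAVA are listed with the build GRCm38 in the submitters' processing notes. The read counter, annotation release and strand setting are not given in the sources used here. The authors deposited whole-number read counts per gene, not normalised, and FPKM values, per the file headers.

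Symbols, coordinates and shared exon bases were taken from GENCODE M21 (GRCm38). Counts were scaled with TMM factors, 1.01 for Cry2scko and 0.993 for Cry2flox (edgeR 4.0.16, R 4.3.3), and expressed as CPM. A mean of 1 CPM is about 16.5 reads in Cry2scko and 18.8 reads in Cry2flox. Ratios are log2 of Cry2scko over Cry2flox, with 0.5 reads added to both counts, and carry a 95% Clopper-Pearson interval from the read share. A gene was called at a mean CPM of 1 or more, a 2-fold ratio and an interval excluding 1. With 1 library per genotype no test was made. The procedure was tested on simulated counts that held counting error alone, so the simulation cannot show variation between animals. BLAST 2.17.0 was used to look for near-identical transcripts on the reference chromosomes. Python 3.11.15, numpy 2.4.6, scipy 1.17.1, pandas 2.3.3 and matplotlib 3.10.9 were used.

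The members and lists were chosen with earlier results of these data known. Some genes of the family and lists are not reported here by name, though they enter the counts over lists. Every other member with 10 or more reads is given with its counts, those past the rule and their partners in full, and of other lists the genes past the rule and up to 2 others by level, while further genes were picked after their values were seen. Alternatives were other scalings (total counts, DESeq2 1.42.0 size factors, totals without mitochondrially encoded and the 20 most abundant genes), FPKM with 0.1 added, other filters, 5 reads added, a 1.5-fold threshold and leaving out genes with shared exon bases or near-identical copies.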

Additional observations from a re-analysis of the deposited data

How the results depend on the processing

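The 9 higher members were the same 9 under total counts, DESeq2 size factors and totals without mitochondrially encoded and the 20 most abundant genes. FPKM values with 0.1 FPKM added, called without a counting interval, left 8, without Cxcr2, as did 5 added reads. Cxcr2 had 0.312 FPKM in Cry2scko and 0.151 FPKM in Cry2flox, a log2 ratio of 0.72 with 0.1 FPKM added. Leaving out genes with shared exon bases or near-identical copies left 8, without Cxcr5. Without a filter 19 members were higher, since more genes enter. A mean CPM of 5 left 2, Cxcl13 and Cxcr4, since only 6 members reach it. A minimum of 1 CPM in each library, an alternative chosen after seeing the data, left 5. No member was lower except at a 1.5-fold threshold, which gave 1, Ccl6. The ligand median was 0.24 without genes sharing exon bases and -0.066 at 1 CPM in each library, so its sign is not settled, and the receptor median was 0.46 at a mean CPM of 5. Over all genes, 789 were higher and 396 lower without a filter, 175 and 76 at a mean CPM of 5, 842 and 558 at 1.5-fold, and 270 and 121 without genes sharing exon bases, by construction. FPKM values, with 0.1 FPKM added and no interval asked for, gave 116 lower, and the cause was not tested. Of 195 recomputed single-member ratios, 0 of those past the rule changed sign and 2 fell below it, both of Cxcr2. Depth limits the 18 members read 11 to 34 times. No paired analysis was possible because each genotype has 1 library.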

Other observations

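Most measured relatives of the family that the name rule leaves out did not pass the rule. Of 21 listed names 17 were in the table, 9 were measured, 0 were higher, 1 was lower and 8 were neither. The lower one was Pf4, the platelet CXC chemokine, with 19 reads in Cry2scko and 45 in Cry2flox, a log2 ratio of -1.04 (-1.92 to -0.26). Its platelet companion Ppbp had 0 reads in Cry2scko and 1 in Cry2flox. Itga2b, another platelet gene, went the other way, with 33 reads in Cry2scko and 19 in Cry2flox at 0.96 (0.12 to 1.88), under 2-fold. Ccrl2, an atypical receptor that presents chemerin, had 97 reads in Cry2scko and 111 in Cry2flox at -0.01 (-0.42 to 0.39). Cmtm6 had 281 reads in Cry2scko and 268 in Cry2flox at 0.25. Mif, an atypical ligand of CXCR4, had 264 reads in Cry2scko and 281 in Cry2flox at 0.09. Dpp4, the protease that trims several chemokines, had 143 reads in Cry2scko and 101 in Cry2flox at 0.68 (0.31 to 1.07). Cxcl11, annotated as a polymorphic pseudogene and so not a member, had 14 reads in Cry2scko and 10 in Cry2flox at 0.65 (-0.61 to 2.00). Under a mean of 1 CPM, Gpr35 had 16 reads in Cry2scko and 4 in Cry2flox at 2.06 (0.55 to 4.22). Cklf, also under that mean, had 11 reads in Cry2scko and 3 in Cry2flox at 1.90 (0.14 to 4.54). Neither can be called, and Ppbp lay the other way on 1 read.

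Of 13 cytokines known to induce chemokines, 4 were measured and 1 was higher, 0 lower and 3 neither. Over all 12832 measured genes, 3.37% were higher and 1.51% lower. The higher one, Il1b, which encodes interleukin 1 beta, had 41 reads in Cry2scko and 0 in Cry2flox, at least 15.5-fold higher against 3 reads. With 2.48 CPM in Cry2scko, Il1b reached the mean of 1 CPM only through that library. Its exons overlap those of Il1bos on the other strand. Tnf had 8 reads in Cry2scko and 6 in Cry2flox and Il6 had 2 reads in Cry2scko and 2 in Cry2flox. Ifng, Il4, Il13, Il17a and Csf2 had 0 reads in both libraries. Of the 13, 5 had 0 reads in Cry2scko and 8 had 0 in Cry2flox, so Il1b was not the only one read in Cry2scko alone. The 3 others measured were Tgfb1 at 0.33, Csf1 at -0.31 and Il33 at -0.08.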
